A study of Mus musculus with 9 samples.

Results

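A group of 40 genes of the integrated stress response and of amino acid supply was followed in ventricular RNA of mice at postnatal day 7. The genes were chosen by name, as genes known to belong to the pathway, with earlier results of these data known. The rule itself used no measured value. The study asked what loss of Arid1a, which belongs to the SWI/SNF family of chromatin remodelers, does to the neonatal heart. By the labels, 5 libraries of Arid1a f/f controls were compared with 4 libraries of αMHC-Cre;Arid1a f/f animals (Arid1a cKO). The study describes the controls as littermates. Both groups carried the floxed alleles on a C57B/6 J background and both held male and female animals. The αMHC promoter drives Cre in cardiomyocytes, whereas the RNA came from whole ventricles, so fewer cells of a type and less RNA per cell cannot be told apart. No library came from Cre-carrying animals without the floxed alleles, so an effect of Cre itself and an effect of the deletion cannot be told apart. All 40 genes were found among the 38293 genes of the count table. A filter on low counts left 15318 genes for testing, of which 37 were members. Cth, Slc7a11 and Fgf21 did not pass it, and in a fit without the filter none of the 3 reached an adjusted p under 0.05.

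The integrated stress response joins several kinds of stress to one switch. The kinases HRI, PKR, PERK and GCN2 sense heme lack or mitochondrial stress, double-stranded RNA, misfolded protein in the endoplasmic reticulum and lack of amino acids, and each phosphorylates the translation factor eIF2. General translation then falls, while the transcription factor ATF4 is translated more and turns on genes for amino acid synthesis, amino acid import, stress hormones and feedback inhibitors. In heart muscle the pathway is best known from mitochondrial disease, where the protease OMA1 and its substrate DELE1 pass the signal to HRI. Because ATF4 is set largely by translation, read counts of Atf4 do not measure its activity, and counts of its target genes are the closer readout in RNA.

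Total counts lay between 31011055 and 40073801 per library. Levels are given in CPM, the reads of a gene as parts per 1e6 of a library total scaled with the TMM method. Arid1a was present at 128.0 to 148.1 CPM in controls and at 100.3 to 112.9 CPM in Arid1a cKO, with no overlap (log2 fold change -0.39, adjusted p = 0.00132). The 6 cardiomyocyte markers summed to 31340 to 37990 CPM in controls and 29270 to 34540 CPM in cKO, and none of the 6 passed the test with edgeR at an adjusted p under 0.05, 3 being under 0.05 unadjusted. The 6 fibroblast markers summed to 3871 to 4450 CPM in controls and 5186 to 5538 CPM in cKO, and 4 of the 6 were higher. Markers of atrial cardiomyocytes summed to 162.8 to 253.9 CPM in controls and 903.9 to 2573 CPM in cKO, with 2 of 5 tested genes higher, Nppa (15.1-fold) and Myl7 (2.29-fold). Nppa made up most of that sum in each cKO library, at 710.9 to 2432 CPM. Among other atrial markers, Sln changed by -1.25 (adjusted p = 0.262) and Myl4 by 0.16 (0.71), and Bmp10 had 0 to 6 counts in controls and 0 in cKO. The 6 macrophage markers all had positive changes, none past the test and 0 at an unadjusted p under 0.05, and their sums overlapped at 82.8 to 132.9 CPM and 91.1 to 156.8 CPM. The 6 erythroid markers too had positive changes, with sums of 483.2 to 930.4 CPM in controls and 734.2 to 1136 CPM in cKO and 0 past the test, 1 having an unadjusted p under 0.05. The 6 epicardial markers had negative changes, with 1 past the test, Wt1 (-0.40), and sums of 22.9 to 87.1 CPM and 21.4 to 35.03 CPM. Of 6 endothelial markers 1 was lower, Tek (-0.28). The 6 mural cell markers summed to 1738 to 1848 CPM in controls and 1678 to 2040 CPM in cKO. Of these, 0 passed the test and 2 had an unadjusted p under 0.05. The part of these shifts in the changes below was not tested. The libraries also formed 2 sets by the level of Rps3a3, a copy of a ribosomal protein gene. Controls 1 and 2 and cKO 1 to 3 had at most 0.521 CPM of it (low set), and controls 3 to 5 and cKO 4 had at least 99.7 CPM (high set). Values are given within the sets where they bear on a member.

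Of the 37 tested members, 3 were higher in Arid1a cKO at an adjusted p under 0.05, namely Gdf15, Atf5 and Pycr1, where 8.25% of all tested genes were higher. Another 5 were lower, namely Vldlr, Slc7a1, Herpud1, Atf6 and Dele1, where 8.03% of all tested genes were lower. Together these 8 members were 21.6% of those tested, beside 16.3% of all tested genes. Gdf15 alone also exceeded a 1.5-fold change, as did 4.01% of tested genes in that direction. No member was more than 1.5-fold lower and past the test, as were 2.72% of tested genes (6.72% in either direction). An unadjusted p under 0.05 was seen in 12 of the 37 (32.4%), beside 29.7% of all tested genes. DESeq2 put 4 members higher and 6 lower past an adjusted p of 0.05, of which Chac1 was the 1 lower member over 1.5-fold. The median log2 fold change was 0.04 over the 37 members and 0.01 over all tested genes. The groups did not overlap in 3 members on the higher side, beside 8.16% of all tested genes, and in 4 on the lower side, beside 8.58%, or 16.7% of tested genes in either direction. Without cKO 1 the number of higher members was 5, and without cKO 4 the number of lower members was 2. Without cKO 3 there were 2 members over 1.5-fold higher and 1 over 1.5-fold lower.

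**Figure D1:**
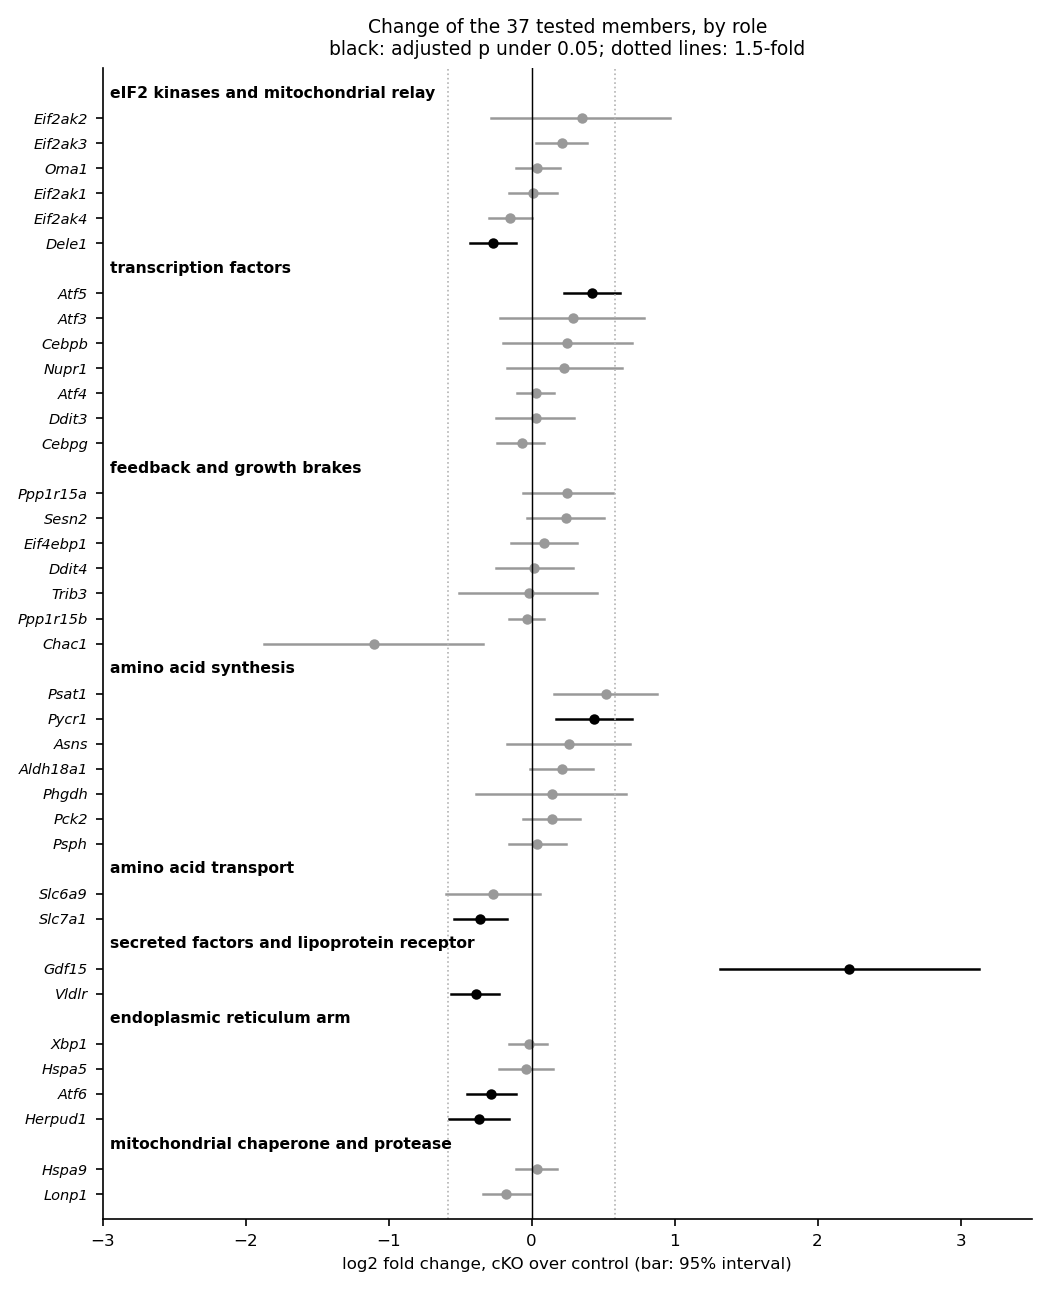
Log2 fold change of each of the 37 tested members (x axis, cKO over control, bar: 95% interval), grouped by role (y axis). Gdf15 stands at 2.22, the 7 other members past the test lie between -0.39 and 0.44, and Atf4 and Ddit3 both lie at 0.03.

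Many of these genes are known to carry a C/EBP-ATF response element, through which ATF4 and its partners act, so their promoters were searched for its core. The letters TGATGNAA were looked for on both strands in RefSeq promoter windows on GRCm38.p6, from 250 bases before to 50 bases after each start. Windows were found for 34 of the 40 members, and Atf6, Cth, Dele1, Eif4ebp1, Hspa9 and Ppp1r15b had none. The core was found in 11 of the 34 (32.4%), beside 4.51% of all genes with a window. The members were picked for their place in this pathway, so that share is a description. The matches are printed below, turned so that the core in capitals reads in the same direction, first the members that passed the test and then those that did not.
Pycr1, higher in cKO, chr11:120643833-120643862, minus strand: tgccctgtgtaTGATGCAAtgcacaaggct
Herpud1, lower in cKO, chr8:94386306-94386335, minus strand: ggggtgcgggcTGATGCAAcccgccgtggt
Vldlr, lower in cKO, chr19:27216809-27216838, minus strand: gctaggagcgcTGATGCAActattgctgct
Chac1, not passed, chr2:119351038-119351067, minus strand: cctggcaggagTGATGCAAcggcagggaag
Asns, not passed, chr6:7693214-7693243, minus strand: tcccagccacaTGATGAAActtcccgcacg
Atf3, not passed, chr1:191183425-191183454, plus strand: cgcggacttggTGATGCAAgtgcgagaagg
Nupr1, not passed, chr7:126625562-126625591, plus strand: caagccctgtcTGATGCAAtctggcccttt
Trib3, not passed, chr2:152344028-152344057, plus strand: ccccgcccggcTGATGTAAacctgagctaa
Pck2, not passed, chr14:55540152-55540181, minus strand: ctgtaagatacTGATGTAActttgaaggct
Fgf21, not tested, chr7:45615611-45615640, plus strand: gcctggacggaTGATGCAAtgggggggtct
Slc7a11, not tested, chr3:50443661-50443690, minus strand: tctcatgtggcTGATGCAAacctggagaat

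The members with the core did not move in one direction. Of the 9 that were tested, 1 was higher, 2 were lower and 6 did not pass, where 8.25% of all tested genes were higher and 8.03% lower, with log2 fold changes from -1.10 to 0.44 and a median of 0.14. Among the 23 tested members with a window but no core, 2 were higher and 1 was lower, with a median of 0.04. Slc7a11 held the core at another position too, on the opposite strand. The stretches of Asns, Nupr1, Trib3 and Vldlr overlapped an annotated exon of their gene, and that of Vldlr belongs to a second annotated start. A cyclic AMP response element, TGACGTCA, was found in 1 member, Ppp1r15a, and in 2.03% of all genes with a window. The endoplasmic reticulum stress response element, CCAAT followed after 9 bases by CCACG, was found in Hspa5 and in 0.137% of all genes with a window. The stretch of Hspa5 too overlapped an annotated exon of its gene.
Hspa5, not passed, chr2:34772020-34772048, plus strand: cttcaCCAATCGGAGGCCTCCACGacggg

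The kinases came first in the pathway, and none of them passed the test, by edgeR or by DESeq2. Eif2ak3 (chromosome 6, 70844515 to 70905245) encodes PERK, the sensor of the endoplasmic reticulum. It was measured at 22.8, 23.5, 24.3, 22.3 and 26.6 CPM in controls 1 to 5 and at 26.6, 25.2, 27.7 and 31.3 CPM in cKO 1 to 4. The groups overlapped through control 5 alone, which lay above cKO 1 and cKO 2, and the log2 fold change was 0.21 (95% interval 0.03 to 0.39, adjusted p = 0.107). When the model also held the library set, Eif2ak3 passed, at 0.26 (adjusted p = 0.0322). Eif2ak4 (chromosome 2, 118388618 to 118475234), which encodes the amino acid sensor GCN2, had 24.3, 25.1, 26.6, 25.4 and 26.0 CPM in controls and 21.7, 24.5, 21.8 and 24.0 CPM in cKO. Only control 1 lay below the highest cKO library, and the change was -0.15 (95% interval -0.30 to 0.00, adjusted p = 0.181).

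Eif2ak1 (chromosome 5, 143817788 to 143904251), the gene of HRI, had 41.2, 48.1, 46.3, 52.1 and 47.0 CPM in controls and 50.8, 44.2, 45.8 and 48.5 CPM in cKO. Its groups overlapped throughout, with a log2 fold change of 0.01 (95% interval -0.16 to 0.18, adjusted p = 0.94). Eif2ak1 shares 487 of its 5670 exon bases with Aimp2 on the opposite strand. Eif2ak2 (chromosome 17, 78852564 to 78882573) encodes PKR and is itself induced by interferon. It had 37.1, 49.0, 23.5, 27.8 and 29.7 CPM in controls and 47.2, 32.1, 61.5 and 29.3 CPM in cKO. Its levels followed the library sets and not the genotype, with 32.1 to 61.5 CPM in the low set and 23.5 to 29.7 CPM in the high set. The genotype difference was 0.35 (95% interval -0.28 to 0.97, adjusted p = 0.445), and within the sets it was 0.09 and 0.12 on the log2(CPM + 0.5) scale.

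In the mitochondrial relay to HRI the protease gene Oma1 lay at 18.04 to 20.4 CPM in controls and 19.2 to 20.6 CPM in cKO (log2 fold change 0.04, adjusted p = 0.73). Dele1 (chromosome 18, 38250255 to 38265461) encodes the protein that OMA1 cleaves to pass the signal on. It fell from 130, 121, 112, 112 and 106 CPM in controls to 91.6, 107, 95.4 and 92.1 CPM in cKO. Control 5 lay just below cKO 2, and all other control libraries lay above all cKO libraries. On the log2 scale this was -0.27 with an SE of 0.07 (adjusted p = 0.0269). Dele1 no longer passed without control 2 (adjusted p = 0.0569), cKO 1 (0.0631), cKO 3 (0.072) or cKO 4 (0.0778), at changes between -0.26 and -0.24. It shares 145 of its 7381 exon bases with a lincRNA on the opposite strand.

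Atf4 (chromosome 15, 80255184 to 80257541), the central transcription factor, had 135, 116, 123, 121 and 126 CPM in controls and 124, 135, 123 and 126 CPM in cKO. The cKO libraries lay within the range of the controls. Its log2 fold change was 0.03, with a 95% interval from -0.10 to 0.16 (adjusted p = 0.787). Ddit3 (chromosome 10, 127290774 to 127296288), the gene of the pro-apoptotic factor CHOP that ATF4 induces, had 17.2, 20.9, 14.5, 14.1 and 13.8 CPM in controls and 15.2, 17.8, 17.4 and 15.4 CPM in cKO. Its cKO libraries again lay within the control range, with a change of 0.03 (95% interval -0.25 to 0.30, adjusted p = 0.90).

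**Figure D2:**
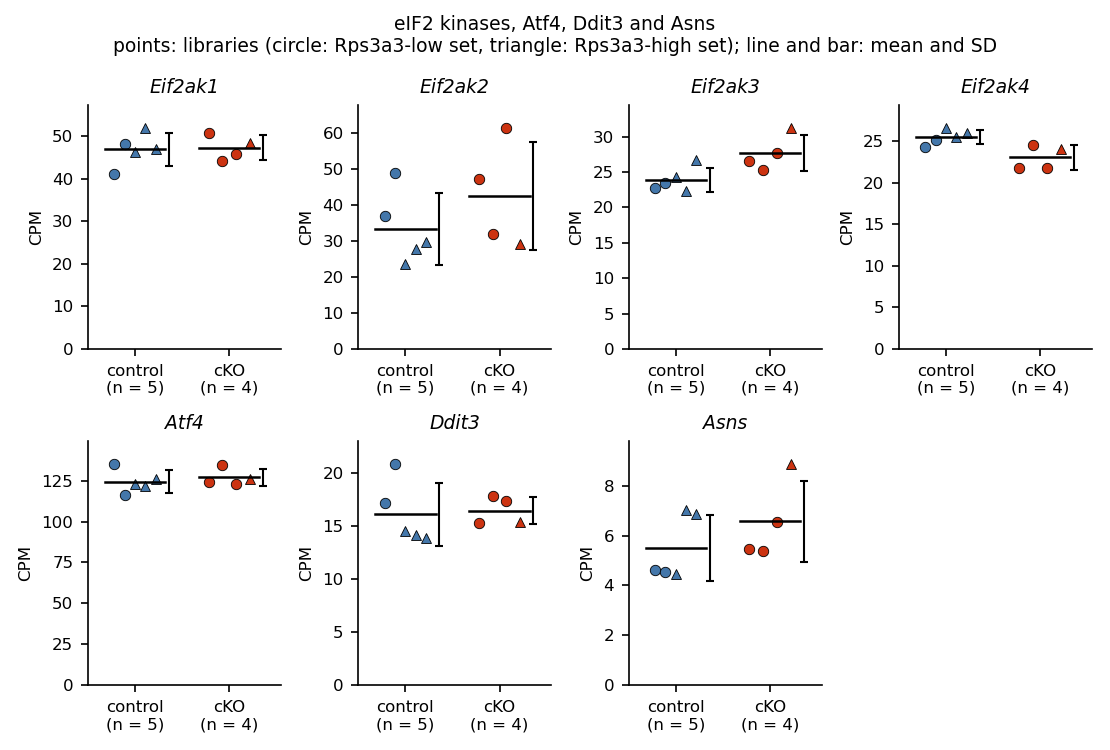
Level in CPM (y axis) of the eIF2 kinase genes, Atf4, Ddit3 and Asns in each control and cKO library (circles: low set, triangles: high set; line and bar: mean and SD). All cKO values of Atf4, Ddit3 and Eif2ak1 lie within the range of the controls, and Eif2ak2 is at 32.1 to 61.5 CPM in the circles and at 23.5 to 29.7 CPM in the triangles.

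Of the 7 transcription factors 1 passed. Atf5 (chromosome 7, 44812256 to 44816658) encodes a relative of ATF4 that controls the mitochondrial unfolded protein response. It rose from 30.5, 26.4, 27.3, 23.4 and 26.0 CPM in controls to 33.1, 40.6, 32.7 and 36.9 CPM in cKO. Each cKO library lay above each control, and the rise was 1.34-fold, or 0.42 on the log2 scale with an SE of 0.09 (adjusted p = 0.00711). It passed in 9 of 9 leave-one-library-out fits, and it shares 82 of its 1993 exon bases with genes on the opposite strand. The differences within the low and high sets were 0.31 and 0.52.

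The other factors overlapped between the groups. Atf3, a stress-induced repressor that also responds as an immediate early gene, ranged from 17.0 to 26.0 CPM in controls and from 15.7 to 37.2 CPM in cKO, at 0.29 (95% interval -0.22 to 0.79, adjusted p = 0.441). Its highest level was in cKO 1 and its lowest in cKO 2. Among 12 immediate early genes, 2 were higher and 1 was lower (25%, beside 16.3% of all tested genes). An unadjusted p under 0.05 was seen in 41.7%, beside 29.7% of all tested genes. The higher genes, both without overlap, were Egr2 (4-fold, adjusted p = 0.000796) and Egr1 (2.26-fold, adjusted p = 0.0184). Jun was lower (-0.35, adjusted p = 0.0385), with overlap. The summed level overlapped, from 273.5 to 461.6 CPM in controls and from 327.6 to 487.0 CPM in cKO. Cebpb, Cebpg and Nupr1, partners or targets of ATF4, changed by 0.25, -0.07 and 0.23 with adjusted p values of 0.453, 0.57 and 0.438. Cebpb shares 312 of its 1504 exon bases with Tmem189 on the opposite strand.

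The feedback and growth-restraining members held 0 of 7 past the test by edgeR, against 1 at an unadjusted p under 0.05 and 1 by DESeq2, which in both cases was Chac1. Ppp1r15a and Ppp1r15b guide the phosphatase that resets eIF2, and they changed by 0.25 (adjusted p = 0.268) and -0.03 (adjusted p = 0.753). Ppp1r15a passed without control 1 (0.38, adjusted p = 0.0478), which held its highest level of 30.2 CPM. Trib3, a pseudokinase that restrains ATF4, was at 1.69 to 2.59 CPM in controls and 1.62 to 2.996 CPM in cKO, a change of -0.02 (95% interval -0.51 to 0.46). Eif4ebp1, Sesn2 and Ddit4, which restrain translation and growth signalling through mTORC1, changed by 0.09, 0.24 and 0.02 and did not pass.

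Chac1 (chromosome 2, 119351229 to 119354381), which encodes an enzyme that degrades glutathione and is a sensitive target of ATF4, pointed in the other direction. It had 1.26, 1.53, 0.859, 0.786 and 0.711 CPM in controls and 0.249, 0.424, 0.782 and 0.460 CPM in cKO, from 8 to 53 counts. The groups overlapped only because cKO 3 lay above control 5. The log2 fold change was -1.10 (95% interval -1.87 to -0.34, adjusted p = 0.0521). DESeq2 put it past the threshold (-1.11, adjusted p = 0.028), as did a model holding the library set (-1.25, 0.0196) or sex (-1.19, 0.0355), and it also passed without cKO 3 (-1.43, 0.0281).

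Amino acid synthesis held 8 members, of which 7 were tested and 1 passed. Pycr1 (chromosome 11, 120635712 to 120643769) encodes the last enzyme of proline synthesis in mitochondria. It rose from 6.92, 7.36, 6.48, 5.28 and 6.18 CPM in controls to 8.49, 9.89, 7.88 and 8.67 CPM in cKO, without overlap. The difference on the log2 scale was 0.44 with an SE of 0.12 (adjusted p = 0.0281). It did not pass without control 3 (adjusted p = 0.0584), control 4 (0.0592), control 5 (0.0698), cKO 2 (0.0863) or cKO 4 (0.0578), at changes of 0.37 to 0.44. Aldh18a1, which acts earlier in proline synthesis, changed by 0.21 (adjusted p = 0.195) and passed without cKO 1 alone (0.30, adjusted p = 0.0261).

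Serine synthesis starts with Phgdh, goes on with Psat1 and ends with Psph. Psat1 (chromosome 19, 15904678 to 15947337) had 22.9, 17.4, 25.3, 27.3 and 25.5 CPM in controls and 29.5, 35.6, 26.1 and 44.7 CPM in cKO. Only cKO 3 lay within the control range, below control 4, and cKO 4 was the highest. The change was 0.52 (95% interval 0.16 to 0.88, adjusted p = 0.0507). It passed by DESeq2 (adjusted p = 0.0135), in a model that held the library set (0.67, adjusted p = 0.00116), with a filter at a mean of 1 CPM (0.0462) and without cKO 1 (0.0499) or cKO 3 (0.63, adjusted p = 0.0261). The flanking enzymes Phgdh and Psph changed by 0.14 (95% interval -0.39 to 0.66) and 0.04 (95% interval -0.16 to 0.24). Psph shares 452 of its 4329 exon bases with Cct6a on the opposite strand.

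Asns (chromosome 6, 7675169 to 7693254), the asparagine synthetase gene through which this response to amino acid lack was worked out, had 4.63, 4.55, 4.46, 7.02 and 6.86 CPM in controls and 5.48, 5.38, 6.55 and 8.88 CPM in cKO. Its highest level was in cKO 4, but controls 4 and 5 lay above the other cKO libraries. The change was 0.26 (95% interval -0.17 to 0.69, adjusted p = 0.417). Pck2, the mitochondrial enzyme that makes phosphoenolpyruvate, changed by 0.14 (adjusted p = 0.33). Cth, an enzyme of cysteine synthesis, had 0 to 4 counts per control library and 1 to 7 per cKO library and lay below the filter.

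The transport members were not higher. Slc7a1 (chromosome 5, 148327410 to 148399904) encodes the main importer of arginine and lysine. It fell from 66.0, 73.1, 66.0, 61.3 and 66.9 CPM in controls to 55.4, 43.7, 53.3 and 55.9 CPM in cKO. Each cKO library lay below each control, cKO 2 the furthest, and the difference was -0.36 on the log2 scale with an SE of 0.08 (adjusted p = 0.0123). It passed in 9 of 9 leave-one-library-out fits. Slc6a9, a glycine transporter, changed by -0.27 (95% interval -0.60 to 0.06, adjusted p = 0.254), and 1429 of its 5141 exon bases overlap Ccdc24 on the opposite strand. Slc7a11, which exchanges cystine for glutamate, had 5 to 19 counts per control library and 6 to 16 per cKO library and lay below the filter too.

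The 2 tested genes among the secreted factors and the lipoprotein receptor both passed, in opposite directions. Gdf15 (chromosome 8, 70629393 to 70632456) encodes a circulating stress hormone that lowers appetite and that several pathways, ATF4 and p53 among them, can induce. It rose from 0.993, 0.492, 0.194, 0.440 and 0.517 CPM in controls to 1.43, 4.06, 1.62 and 2.74 CPM in cKO, from counts of 7 to 33 in controls and 46 to 153 in cKO. Each cKO library lay above each control, and the cKO libraries themselves spread widely, with cKO 2 the highest. The mean went from 0.527 ± 0.290 CPM (SD, n = 5) in controls to 2.46 ± 1.21 CPM (SD, n = 4) in cKO. This was a 4.67-fold difference, or 2.22 on the log2 scale with an SE of 0.42 (adjusted p = 0.0035). It passed in 9 of 9 leave-one-library-out fits, with changes from 1.87 without cKO 2 to 2.59 without control 1. Its level stayed low in cKO as well, at 1.33 CPM per kilobase of exon, beside 53.9 for Atf4. Fgf21, another stress hormone, had 4 counts in control 5 and 0 in the other controls, and 0, 3, 2 and 2 counts in cKO 1 to 4.

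Vldlr (chromosome 19, 27216484 to 27254231) encodes a receptor that takes up lipoproteins and is a target of ATF4 in other tissues. It fell from 406, 396, 435, 475 and 447 CPM in controls to 362, 302, 339.9 and 311 CPM in cKO, without overlap. The difference was -0.39 on the log2 scale with an SE of 0.08 (adjusted p = 0.00382), and it passed in 9 of 9 leave-one-library-out fits.

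The members of the endoplasmic reticulum arm were level or lower. Atf6 (chromosome 1, 170704674 to 170867771) encodes the membrane-bound sensor whose cut fragment induces chaperones. It fell from 101, 106, 102, 111 and 116 CPM in controls to 100.4, 78.6, 90.2 and 84.5 CPM in cKO. The groups were separated by less than 1 CPM between control 1 and cKO 1. The change of -0.28 had an SE of 0.08 (adjusted p = 0.0281), and it did not pass without control 4 (adjusted p = 0.0595), control 5 (0.0588), cKO 2 (0.0736), cKO 3 (0.0598) or cKO 4 (0.078). Herpud1 (chromosome 8, 94386438 to 94395377) encodes a protein that helps to remove misfolded proteins from the endoplasmic reticulum. It fell from 88.0, 93.6, 79.1, 75.3 and 72.8 CPM in controls to 63.9, 67.7, 67.8 and 53.3 CPM in cKO, without overlap. The change was -0.37 (SE 0.10, adjusted p = 0.0194), and without cKO 4, the lowest library, it was -0.30 (adjusted p = 0.0519).

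The other members of the arm, Hspa5 and Xbp1, did not pass by edgeR or by DESeq2. The chaperone gene Hspa5, whose stress element is printed above, had 472 to 602 CPM in controls and 473 to 557 CPM in cKO, a change of -0.04 (95% interval -0.23 to 0.15, adjusted p = 0.814). Xbp1, whose spliced mRNA encodes a factor of the unfolded protein response, changed by -0.02 (95% interval -0.16 to 0.11), and counts per gene do not show its splicing. Of the mitochondrial members, the chaperone gene Hspa9 changed by 0.04 (adjusted p = 0.769) and the protease gene Lonp1 by -0.18 (adjusted p = 0.141). Neither passed by edgeR or by DESeq2, with 1 of the 2 at an unadjusted p under 0.05, and Lonp1 passed without cKO 2 alone (-0.24, adjusted p = 0.0439).

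**Figure D3:**
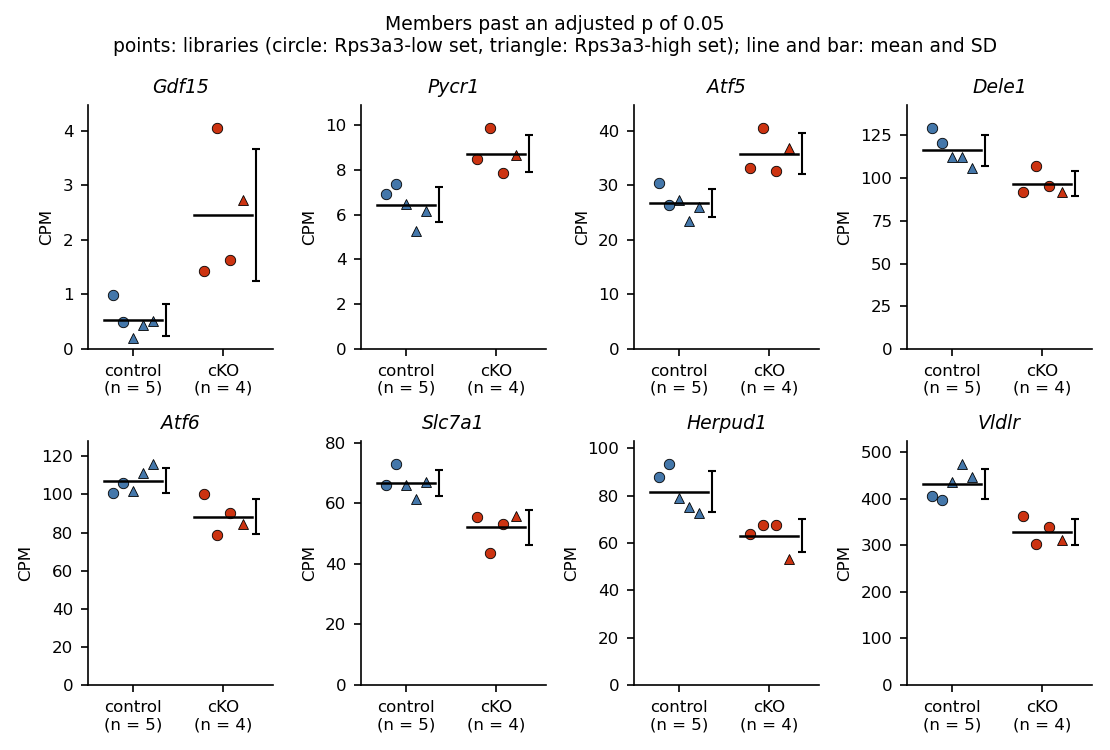
Level in CPM (y axis) of the 8 members past an adjusted p of 0.05 in each control and cKO library (circles: low set, triangles: high set; line and bar: mean and SD). The cKO libraries lie apart from the controls in 7 of the 8, and in Dele1 cKO 2 at 107 CPM lies just above control 5 at 106 CPM.

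The 8 members past the test had one direction in the low and the high set alike, although these same libraries had selected them. On the log2(CPM + 0.5) scale the differences in the low and high sets were 1.12 and 1.89 for Gdf15, 0.27 and 0.50 for Pycr1 and -0.35 and -0.26 for Dele1. They were -0.46 and -0.21 for Slc7a1, -0.26 and -0.54 for Vldlr, -0.21 and -0.37 for Atf6 and -0.45 and -0.50 for Herpud1. The high set held 1 cKO library, and its differences were not tested. In the 5 libraries of the low set 1 member passed, Herpud1 (-0.45, adjusted p = 0.0214), and Gdf15 did not (1.68, adjusted p = 0.158). In a model holding the library set all 8 passed, together with Psat1, Eif2ak3 and Chac1.

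**Figure D4:**
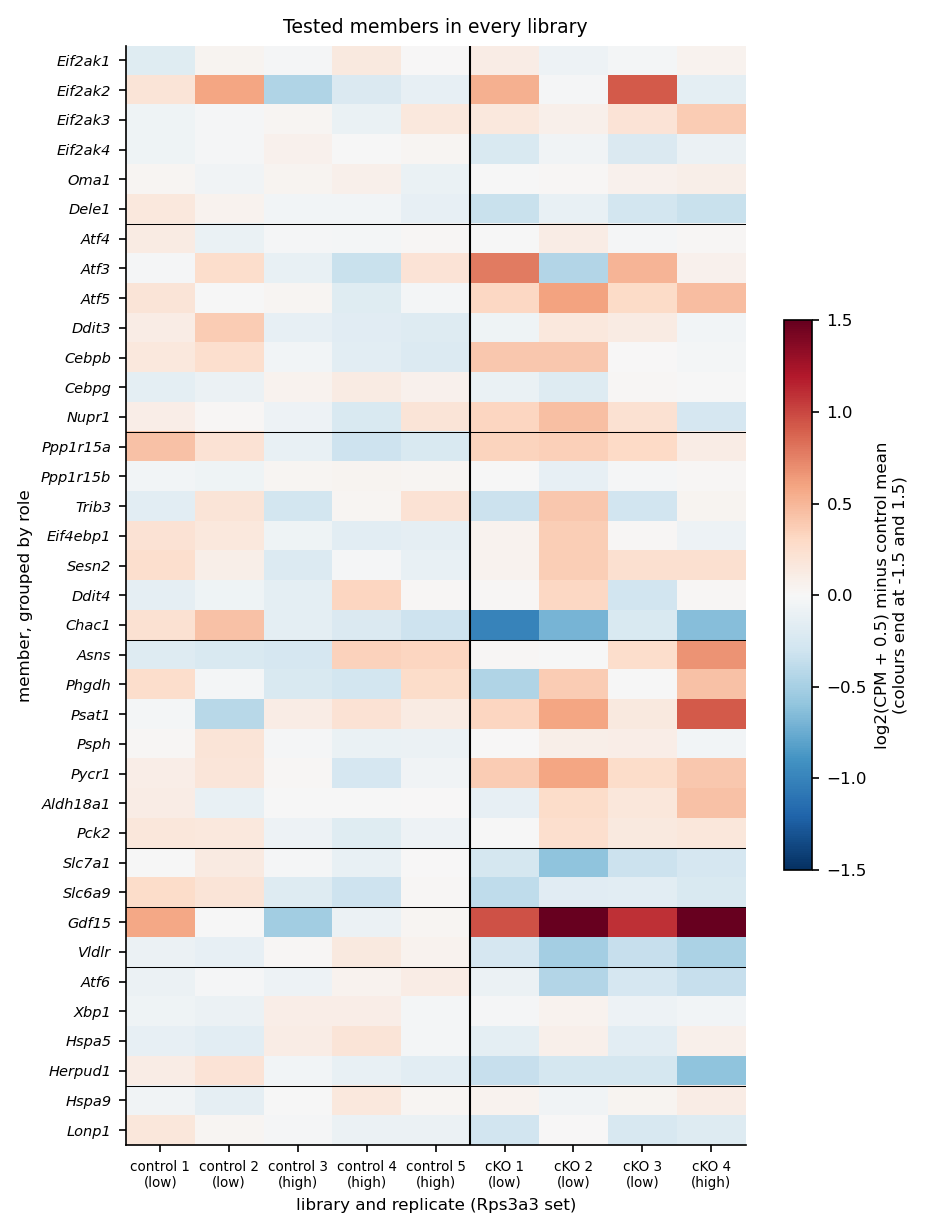
Level of the 37 tested members (rows, grouped by role) in the 9 libraries (columns), as log2(CPM + 0.5) minus the mean of the 5 controls. Gdf15 is high in all 4 cKO libraries and Slc7a1 and Vldlr are low in them, while the rows of Atf4, Oma1, Ppp1r15b and Hspa9 stay near 0 throughout.

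Levels differed more between the members than between the genotypes. Per kilobase of exon the controls held 164.7 CPM of Hspa9, 125.0 of Hspa5, 52.8 of Atf4, 42.9 of Vldlr and 38.7 of Eif4ebp1. The kinases lay lower, at 8.28 for Eif2ak1, 6.54 for Eif2ak2, 3.97 for Eif2ak3 and 3.42 for Eif2ak4. The neighbours Eif2ak1 and Eif2ak2 overlapped among the control libraries once divided by length. The synthesis genes lay between 8.44 for Aldh18a1 and 0.980 for Phgdh, apart from Cth at 0.0135. Gdf15, at 0.285 CPM per kilobase, was the lowest of the tested members.

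The remaining genes of the pathway were followed in 6 lists of 96 genes, of which 95 were tested. There 8 genes rose and 8 fell past the test, or 16.8%, beside 16.3% of all tested genes. The total of 16 went to 9 without control 2, cKO 2 or cKO 4 and to 10 without control 5. None of the 12 genes for eIF2, its exchange factor eIF2B and their partners passed by edgeR or by DESeq2, and 0 had an unadjusted p under 0.05. Of 20 cytosolic aminoacyl-tRNA synthetases, a group that ATF4 is known to induce, 1 passed, 18 had a positive log2 fold change, as did 7895 of the 15318 tested genes, and the median was 0.12. An unadjusted p under 0.05 was seen in 6 of the 20, near the 29.7% of all tested genes. With the library set in the model 4 passed, all higher, and 2 passed without control 1 or without cKO 1, while 0 passed without cKO 2 or cKO 4. The 1 in the comparison of all libraries was Yars, the synthetase for tyrosine, which rose from 46.2 ± 1.22 to 55.0 ± 3.95 CPM (mean ± SD of 5 and 4 libraries), by 0.25 on the log2 scale (adjusted p = 0.0194). It did not pass without cKO 2 (adjusted p = 0.0515) or cKO 4 (0.0541).

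Among 12 other amino acid transporters 2 were higher and 0 lower by both tools, and 4 (33.3%) had an unadjusted p under 0.05, beside 29.7% of all tested genes. With the library set in the model 4 were higher and 1 lower, and in the low set alone 1 was higher and 1 lower. Slc7a5, the importer of large neutral amino acids, was at 12.3 to 15.7 CPM in controls and 13.5 to 24.9 CPM in cKO (0.53, adjusted p = 0.0327). It passed in 2 of 9 leave-one-library-out fits, those without control 1 or without cKO 1, and without cKO 4 its change was 0.38 (adjusted p = 0.102). Slc38a4, a carrier of neutral amino acids, rose from 95.4 to 129.0 CPM in controls to 134.0 to 151.0 CPM in cKO (0.30, adjusted p = 0.0333). It passed in 4 of the 9 fits and not without control 1, control 2, cKO 1, cKO 3 or cKO 4, where its adjusted p was between 0.0508 and 0.0781.

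Of 18 other ATF4 targets 2 were higher and 6 lower (44.4%, beside 16.3% of all tested genes), with a median of -0.12. Without control 2, control 3, control 5 or cKO 2 these counts were 1 higher and 4 lower, and in the low set alone 0 were higher and 2 lower. With the library set in the model they were 2 higher and 8 lower. Gpt2, a mitochondrial transaminase that links alanine to the citrate cycle, fell from 29.8 ± 5.52 to 14.3 ± 2.248 CPM (-1.06, SE 0.14, adjusted p = 0.000415). Aldh1l2, a mitochondrial enzyme of folate metabolism, fell from 37.1 ± 1.89 to 19.1 ± 4.83 CPM (-0.96, SE 0.14, adjusted p = 0.000568). Gadd45a, a growth arrest gene that DNA damage also induces, fell from 8.01 ± 0.574 to 4.999 ± 0.519 CPM (-0.68, SE 0.11, adjusted p = 0.00177). Each of these 3 passed in 9 of 9 leave-one-library-out fits. The groups did not overlap in 4 lower genes of the list, these 3 among them, and in 1 higher gene, beside 8.58% and 8.16% of all tested genes. The higher genes, named after their values were seen, were Cdkn1a, a cell cycle inhibitor best known as a p53 target, at 0.60 (adjusted p = 0.00176), and Mthfd2, an enzyme of mitochondrial folate metabolism, at 0.44 (adjusted p = 0.0481). Mthfd2 passed in 2 of 9 leave-one-library-out fits, those without cKO 1 or cKO 3.

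Of 19 tested genes of the unfolded protein response in the endoplasmic reticulum 2 were higher and 0 lower by both tools, and 4 (21.1%) had an unadjusted p under 0.05, beside 29.7% of all tested genes. Selenos and Edem1, which act in the removal of misfolded proteins, changed by 0.25 (adjusted p = 0.0328) and 0.19 (adjusted p = 0.0453). Selenos passed in 2 of 9 leave-one-library-out fits, those without control 3 or cKO 3, and Edem1 in 1 of 9, the one without control 1. Of 14 genes of mitochondrial protein quality control 1 was higher and 2 were lower (21.4%, beside 16.3% of all tested genes). The chaperonin gene Hspe1 rose from 45.3 ± 2.13 to 58.4 ± 3.496 CPM (0.36, adjusted p = 0.00249), whereas Clpx, the unfoldase of a matrix protease, fell from 92.4 ± 7.60 to 66.4 ± 6.92 CPM (-0.48, adjusted p = 0.00244). Trap1, a mitochondrial chaperone, fell from 185.2 ± 6.30 to 150.2 ± 7.41 CPM (-0.30, adjusted p = 0.00309). All 3 passed in 9 of 9 leave-one-library-out fits, and their groups did not overlap, as in 16.7% of all tested genes.

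**Figure D5:**
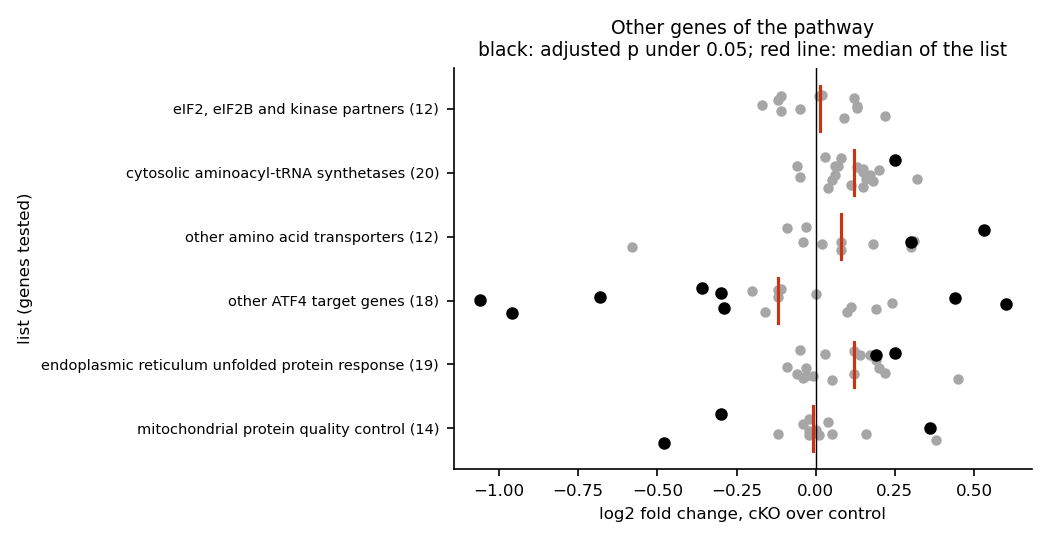
Log2 fold change (x axis, cKO over control) of the 95 tested genes in the 6 further lists (y axis), with genes past an adjusted p of 0.05 in black and the list median as a red line. The ATF4 target list spans -1.06 to 0.60, and the medians of the lists lie between -0.12 and 0.12.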

How the data were processed

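Poly(A)-selected RNA was measured in 9 libraries. The study's methods name 4 controls and the labels give 5; all 5 were used. The authors deposited raw read counts per Ensembl gene in 1 table, made from stranded single-end libraries mapped to mm10; the submitters' processing notes name STAR 2.4.2a and HTSeq 0.6.1. The annotation release and strand setting are not given in the sources used here, so members sharing exons with a gene on the opposite strand are uncertain, and near-identical copies were not checked. Symbols and coordinates came from GENCODE M21 on GRCm38 (36345 of 38293 identifiers). The table held 0 columns of other samples.

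Counts were tested in R 4.3.3 with edgeR 4.0.16 (filterByExpr at a minimum count of 10, TMM scaling, robust quasi-likelihood F test, genotype alone, two-sided) on all 15318 genes passing the filter, with Benjamini-Hochberg adjustment over them. SE and 95% intervals derive from the F statistic. The fit was also run on simulated counts with known changes. That simulation held no library sets, so it cannot show how the fit handles them. Libraries of a group differed by more than counting error (chi-square per gene 9.52 to 50.6); the labels do not say that each came from 1 animal, so the spread may in part be technical. Values per library were given for members past an adjusted p of 0.05 and for Atf4, Ddit3, Asns and the eIF2 kinases, and Psat1 and Chac1 were added after their values were seen; up to 3 passing genes of each further list, those with the largest change, were named, and Cdkn1a and Mthfd2 were added after their values were seen. The members and lists were chosen with earlier results of these data known. Alternatives were DESeq2 1.42.0, RLE and upper-quartile scaling, other filters, the library set, sex (by Xist) or the replicate number as terms, the low set alone and leaving out each library.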

Additional observations from a re-analysis of the deposited data

How the results depend on the processing

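Scaling by RLE or upper quartile left 3 members higher and 5 lower past the test. With the library set as a term 5 members were higher, 2 of them over 1.5-fold, and 1 was over 1.5-fold lower; the last count was also 1 with DESeq2 and with sex as a term. In the low set alone 0 members were higher, 1 was lower and 0 were over 1.5-fold higher, with 2 control and 3 cKO libraries. Of the further pathway genes 16 passed in the main comparison, 5 in the low set alone and 10 with sex as a term. With the library set as a term more of them passed than in the main comparison. Leaving out 1 library at a time gave these ranges: 2 to 5 members were higher, 2 to 5 lower, 1 to 2 over 1.5-fold higher, 0 to 1 over 1.5-fold lower, and 9 to 13 further pathway genes passed. The cause of these differences was not tested.

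The same replicate numbers occur in both groups, but the labels do not say that they mark a pairing. Deviations from the group means correlated at 0.02, 0.04, 0.01 and 0.23 for numbers 1 to 4, and 1 of 8 libraries correlated best with its own number. With the replicate block 2 members were higher and 3 lower, with Pycr1, Slc7a1 and Atf6 no longer past the test, and 9 further pathway genes passed. For low members such as Gdf15 and Chac1 the depth of these libraries gave 7 to 153 and 8 to 53 counts per library, and for Cth, Slc7a11 and Fgf21 a difference was not detectable at this depth, also without the filter on low counts.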

Other observations

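In 6 of the 37 tested members the low and high library sets did not overlap whatever the genotype (16.2%, beside 8.02% of all tested genes). These were Eif2ak2, Cebpb, Ppp1r15a, Ppp1r15b, Eif4ebp1 and Psph. Ppp1r15a lay at 25.8 to 30.2 CPM in the low set and 17.7 to 24.0 CPM in the high set, and Eif4ebp1 at 85.6 to 109.2 and 75.5 to 80.6 CPM. Ppp1r15b was the one that lay lower in the low set, at 67.7 to 73.1 against 74.4 to 75.4 CPM. The labels name no batch that corresponds to the sets.

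With 4 or 5 libraries in a group, Dixon's test passes over all but very wide gaps. Over 74 groups of 4 or 5 libraries, the widest gap as a share of the group's range was 0.805, for Slc7a1 in cKO 2, under Dixon's 95% limit for 4 values. In controls it was 0.648, for Ddit4 in control 4.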
